A study of Homo sapiens with 4 samples.

Results

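Of the 9466 m6A peaks in the authors' deposited table, 1297 carried the region label exonic, and they lay on 1117 of the 6763 listed genes. They were chosen by that label alone, with no use of a measured value. The label stands beside separate labels for start codon, stop codon, 5'UTR, 3'UTR, intronic and non-coding exonic peaks, so it is taken to cover peaks in coding exons away from the start and stop codon. Exon models were not used here to check it. Of the exonic peaks, 1273 matched a gene of the RefSeq annotation of GRCh38.p14, and all 1273 lay on protein-coding genes. On a scale from 0 at the start to 1 at the end of the gene, introns included, their centres lay at a median of 0.61. Stop codon peaks lay at 0.89, 3'UTR peaks at 0.95, start codon peaks at 0.22 and intronic peaks, like the exonic ones, at 0.61, so position does not tell these labels apart.

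The cells were BEAS-2B, a human bronchial epithelial line made immortal in culture. In the overexpression arm they were transfected with a plasmid that drives METTL16, and in the control arm with an empty plasmid. Neither the plasmid's promoter nor the time after transfection is stated in the sources used here. Each arm gave 1 input library and 1 library of RNA fragments bound by an m6A antibody (MeRIP-seq), 4 libraries in all, with no replicates. The transfected cells were a bulk culture, so fewer cells with a transcript and less of it per cell cannot be told apart. No peak of METTL16 itself was listed (0 lines), and the overexpression was therefore not checked from its level. The epithelial keratin genes were listed at 54.2 and 46.1 FPKM for KRT8 and 59.0 and 59.6 FPKM for KRT18, overexpression arm first, as in all pairs of levels below. The epithelial integrin gene ITGB4 was listed at 0.694 and 0.780 FPKM. Of the mesenchymal markers, the filament gene VIM was listed at 510 and 499 FPKM and the collagen gene COL1A1 at 2.28 and 2.33 FPKM. CDH2, FN1 and COL1A2 had 0 lines. EPCAM, CDH1, KRT5, KRT7, KRT17, KRT19, TP63 and LAMB3, further epithelial markers, had 0 lines. So had the leukocyte markers PTPRC, CD74 and LYZ and the endothelial markers PECAM1, VWF and CDH5. A gene with 0 lines had no listed peak, and its level is therefore unknown here. FPKM counts fragments per kilobase of a transcript, in proportion to the mapped fragments of the library.

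N6-methyladenosine (m6A) is the most common internal modification of mRNA. The METTL3 and METTL14 complex, with partners such as WTAP and VIRMA, places most of it, at adenosines within short motifs such as GGAC, in long internal exons and around stop codons. Exon junction complexes, left near splice junctions, keep the modification out of short internal coding exons, while reader proteins such as YTHDF2 bind it and speed the decay of the transcript. METTL16 is a separate methyltransferase, known for the U6 small nuclear RNA and for hairpins of MAT2A mRNA, which encodes the enzyme that makes the methyl donor. MAT2A had 2 lines in the table and 0 of them were exonic.

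Genome letters could be read for few exonic peaks, where a peak shared bases with a RefSeq promoter window or held a microRNA hairpin. The peak of PHACTR1, a regulator of actin and of protein phosphatase, is shown because it was the one compact exonic peak that lay wholly inside such a window, that of the neighbouring LOC100130357. It spanned 101 bases at chr6:13283518-13283618 on the plus strand (GRCh38.p14), held GGAC at 2 places and GGACT at 0. Both places are given with their surroundings, 5′ to 3′ on the plus strand, with GGAC in capitals. They lie at chr6:13283524-13283553 and chr6:13283584-13283613.
PHACTR1 window 1: gcagataagccgtGGACccgcctcaccgct
PHACTR1 window 2: agagtgggaggcaGGACcgtctgctgggtc
For scale, the middle 101 bases of 35116 RefSeq promoter windows held GGAC in 30.8% and GGACT in 8.94%, read on the gene's strand. In the authors' deposited table PHACTR1 had a log2 fold change of 3.54 (p = 0.0172, no adjusted p), at 0.143 and 0.153 FPKM. The level of the gene was thus close to 0 in either input. Only exonic peaks of at most 1000 bases with at least 50 readable bases were searched for GGAC. Of the 6 such peaks, the other 5 held GGAC at 0 places in the readable stretch, among them ABR with 144 and CALR with 57 readable bases. These matches describe letters and are not mapped m6A sites.

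The exonic peak of GOLGA8B, a golgin gene on chr15:34528192-34529050 (minus strand), enclosed the whole MIR1233-2 hairpin of 82 bases. Its ends are printed because the hairpin starts with GU and stops with AG, the letters at which introns start and end, inside a peak labelled exonic. The capitals mark them, 5′ to 3′ on the minus strand, at chr15:34528348-34528371 and chr15:34528290-34528313.
MIR1233-2 first bases: GUgagugggaggccagggcacggc
MIR1233-2 last bases: cgucugagcccuguccucccgcAG
The same hairpin occurs as MIR1233-1 at chr15:34382069-34382150, identical in 82 of 82 bases. The neighbouring copy GOLGA8A had a stop codon peak at chr15:34381384-34381609. In the authors' deposited table the GOLGA8B exonic peak stood at -3.23 (p = 2.86e-12, adjusted p = 1.30e-09) and a start codon peak of GOLGA8B at -2.57, while the GOLGA8A peak stood at 2.04 (p = 0.0089, adjusted p = 0.0995). Input levels were 6.27 and 6.71 FPKM for GOLGA8B and 6.30 and 7.65 FPKM for GOLGA8A. These peaks of the copies had opposite signs, but they carry different labels, and the GOLGA8A peak lies beside its hairpin and does not enclose it. How reads shared by them were assigned is not given in the sources used here. In all, 9 exonic peaks enclosed a microRNA hairpin.

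The main question was how m6A in coding exons compared between the METTL16 plasmid and the empty plasmid. In the authors' deposited table every listed p-value lies below 0.05, so peaks without that support are outside all shares. Of the 1297 exonic peaks, 785 had a log2 fold change below 0, lower in the overexpression arm, and 512 had one above 0. The share above 0 was 39.5% (95% interval 36.8 to 42.2%, exact Clopper-Pearson, which covers the counting of peaks only). The median was -0.26 (interval -0.29 to -0.22). A peak is called differential, as the authors marked it, at 2-fold or more in either direction (log2 of 1) and a p-value below 0.05. That held for 506 exonic peaks, 39.0%, beside 43.7% of all listed peaks. In the overexpression arm 240 were higher and 266 were lower, which is 18.5% and 20.5% of the exonic peaks, beside 16.5% and 27.2% of all listed peaks. When every value was centred on the median of all listed peaks (-0.38), the split turned to 369 higher and 203 lower and the exonic median became 0.12. The direction of the exonic peaks as a group thus depends on where 0 is set.

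An adjusted p-value below 0.05 accompanied 129 of the 506 differential exonic peaks, with 71 higher and 58 lower. That is 9.95% of all exonic peaks, beside 7.84% of all listed peaks. A further 80 differential exonic peaks, 29 higher and 51 lower, stand without an adjusted p in the authors' deposited table. No value between the arms has a replicate check, because each arm had 1 library of each kind.

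Few exonic peaks had values just above 0, and more lay just below it. No peak with a p-value of 0.05 or more is listed, and the part of this limit was not tested. From the authors' deposited table, 360 peaks (27.8%) lay between -0.5 and 0, and 249 (19.2%) lay between 0.25 and 1. From 0 to 0.25 there were 23 peaks (1.77%), and this range held 2.77% of stop codon and 1.38% of 3'UTR peaks. From -0.25 to 0 there were 128 exonic peaks (9.87%), beside 24.9% of stop codon and 8.53% of 3'UTR peaks. Stop codon peaks were gathered below 0: 60.6% lay between -0.5 and 0 and 10.1% between 0.25 and 1. Of the 3'UTR peaks, 28.8% and 11.2% lay in these ranges. Above 0 stood 39.5% of exonic, 17.3% of stop codon and 26.4% of 3'UTR peaks, and the intervals of these shares do not overlap. The share was 20.9% for start codon, 28.6% for 5'UTR and 31.3% for non-coding exonic peaks. Intronic peaks had a share of 43.3%, so the exonic share is not the highest of all labels. The median of the stop codon peaks was -0.29 and that of the 3'UTR peaks -0.42. No test of the difference between labels was made, because peaks of 1 pair of libraries are not replicates.

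**Figure D1:**
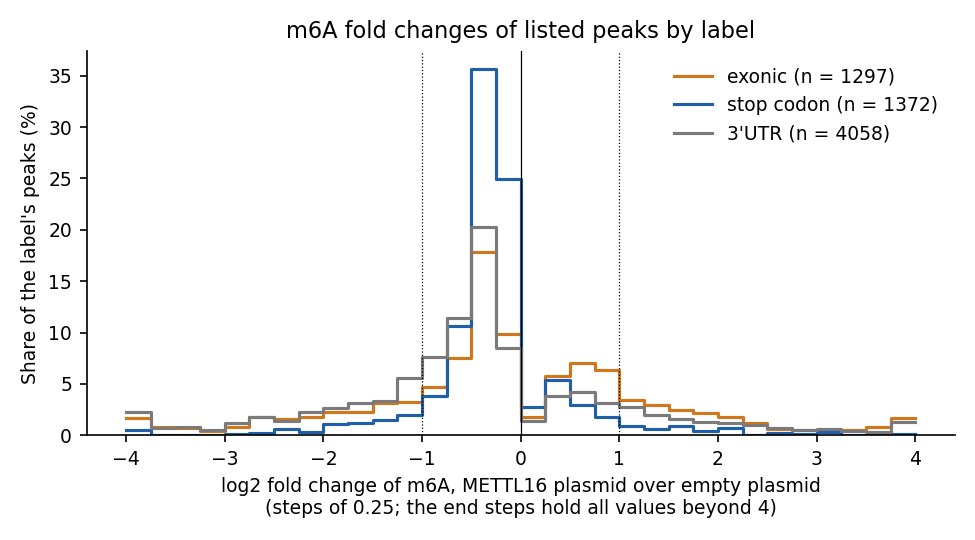
The plot gives, for exonic, stop codon and 3'UTR peaks, the share of the label's peaks (%) in steps of 0.25 of the log2 fold change of m6A, METTL16 plasmid over empty plasmid, from the authors' deposited table. The exonic line is above both others between 0.25 and 1 (19.2% of exonic peaks), and dotted lines mark the 2-fold limits.

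Listed fold changes were larger where the input level of the gene was low. Only peaks with a p-value below 0.05 are listed, so small changes of low genes may be missing. The part of this selection in the shares was not tested. Among exonic peaks of genes at a mean input under 1 FPKM, 153 of 163 peaks (93.9%) were differential, with a median of -1.31. The share was 58.1% of 363 peaks from 1 to 5 FPKM, 21.7% of 525 peaks from 5 to 20 FPKM and 9.77% of 215 peaks from 20 to 100 FPKM. Of the 23 exonic peaks at 100 FPKM or more, 0 were differential. The direction of the differential peaks also went with the level. Under 1 FPKM 62 were higher and 91 lower, from 5 to 20 FPKM 62 were higher and 52 lower, and from 20 to 100 FPKM 15 were higher and 6 lower. The share above 0, which does not depend on a fold limit, was 38.7%, 37.2%, 38.1%, 47.0% and 43.5% from the lowest to the highest of these classes. For stop codon peaks it was 29.4%, 16.2%, 14.1%, 19.2% and 18.8%. Exonic peaks had the higher share in each of the 5 classes, with intervals apart from 1 to 100 FPKM.

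**Figure D2:**
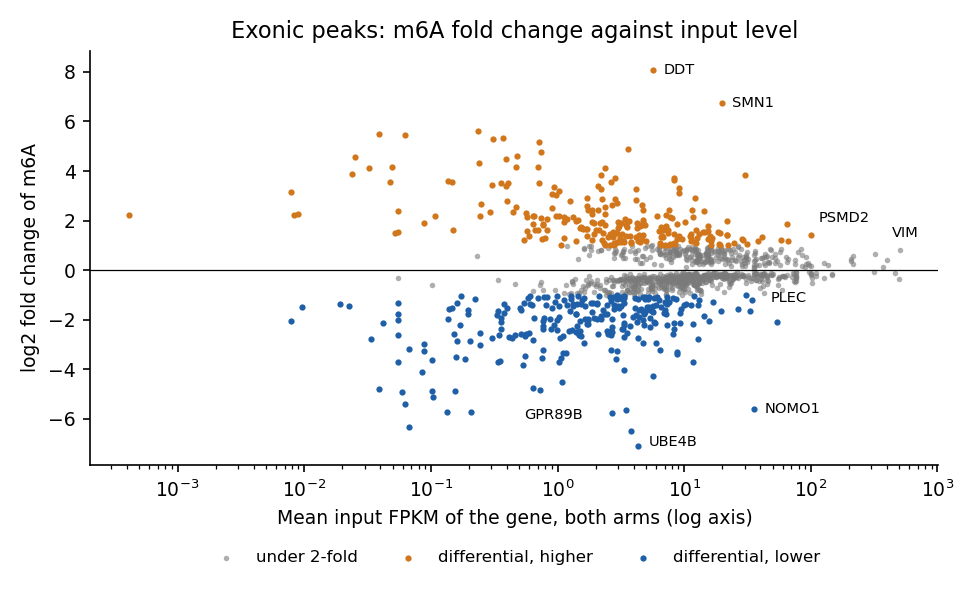
Each point is an exonic peak, with the mean input FPKM of its gene in both arms (log axis) and the log2 fold change of m6A from the authors' deposited table. Differential peaks spread widely under 5 FPKM, and the 23 peaks at 100 FPKM or more all lie under 2-fold.

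The genomic span of a peak, introns included, was the other property that went with its values. Exonic peaks spanned a median of 2181 bases, from 101 to 382029. The shortest peaks grew from 101 bases in whole 25-base steps. A peak within 1 exon is taken here to keep to these steps, while an arbitrary span, such as one across introns, falls on a step in 4% of cases. The reading is not strict: the MT-CYB peak, on a gene without introns, spanned 642 bases, which is not a whole-step span. Of the 125 exonic peaks of at most 200 bases, 99.2% had such a span, against 62.1% of those up to 1000, 15.7% of those up to 5000 and 4.25% of those up to 20000 bases. Most longer exonic peaks thus had spans that whole steps cannot give. Differential peaks made up 70.4% of the shortest class, 51.2%, 31.6% and 31.0% of the next 3, and 20.7% of the 140 peaks over 20000 bases. The share above 0 was highest over 200 and up to 1000 bases, at 47.6%, and lowest over 20000 bases, at 25%. Among stop codon peaks those shares were 23.8% and 21.0%.

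Above 1000 bases, 82 exonic peaks had a span in whole steps, and on this reading they could lie within 1 long exon. Not all of them need do so, and some of the other long peaks may. Over 5000 and up to 20000 bases 4.25% of exonic spans fell on a step, and over 20000 bases 5%. Both shares are near the 4% of arbitrary spans. Of the 82 peaks, 19 were above 0 (23.2%) and 11 were differential (13.4%), while of the other 760 long peaks 37.2% were above 0 and 31.3% differential. By smallest p among nuclear genes, they were led by PLEC at -0.30 and AHNAK at -0.13, both genes with giant coding exons, in the authors' deposited table. They were followed by HDLBP (0.51) and FKBP8 (0.90), then by PKD1 (-0.66), MAP4 (-0.14), ZNF609 (-0.31), NCKAP5L (-0.43) and KMT2D (-0.33). Of those 9 genes, HDLBP, which encodes the RNA-binding protein vigilin, and FKBP8, a membrane chaperone, were the ones above 0. The peaks of AHNAK, HDLBP and MAP4 spanned over 5000 bases (10076, 7776 and 8851).

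**Figure D3:**
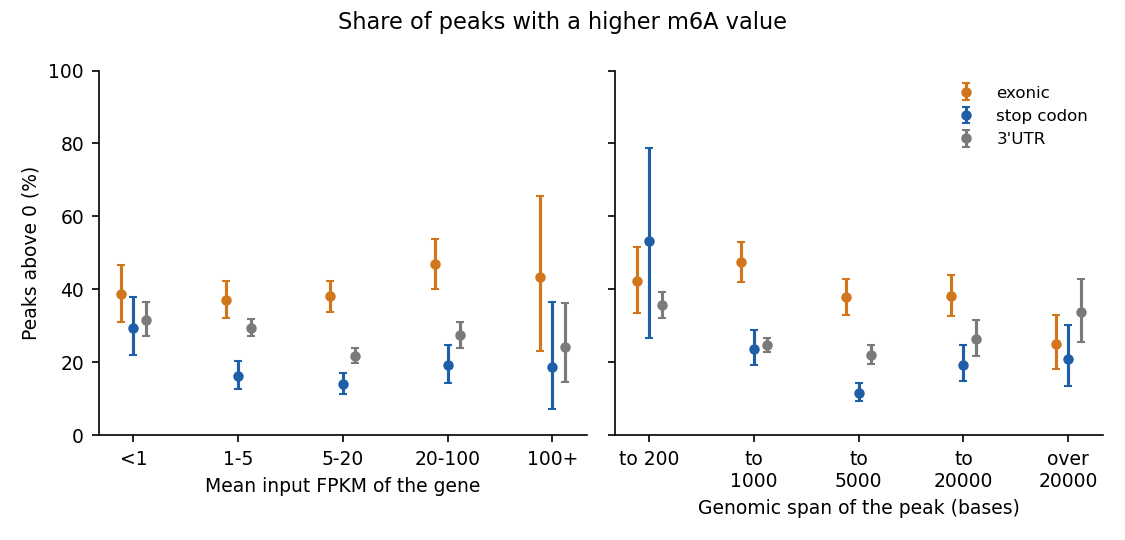
Points give the share of peaks with a log2 fold change above 0 (%), by the mean input FPKM of the gene (left) and by the genomic span of the peak (right), for exonic, stop codon and 3'UTR peaks, with exact 95% intervals that cover the counting of peaks only. Exonic peaks have the highest share in each FPKM class, and stop codon peaks exceed them in the class of at most 200 bases, as 3'UTR peaks do over 20000 bases.

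Along the gene, the differential share was highest next to the start. Below a relative position of 0.2, 57.0% of 151 exonic peaks were differential, with a median of -0.53. In the 4 steps of 0.2 that follow, the share ran from 35.4% to 37.7%. The class next to the start also had the lowest median input, 5.33 FPKM against 6.58 to 7.89, and the shortest median span, 1051 bases against 2007.5 to 4064. Their part in the share was not tested. A few peaks reached the gene's edge: 7 touched its first 50 bases and 3 its last 50, and there the label exonic goes against the RefSeq bounds of the gene. TRMT61A, which encodes the catalytic subunit of a tRNA methyltransferase, is among the 7.

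Most genes had a lone exonic peak, 973 of 1117. Of the 144 genes with several, 39 had all of them above 0, 74 had all below and 31 had both signs. Exonic peaks of a gene thus shared their sign in 78.5% of such genes, beside 66.2% of the 618 genes with several 3'UTR peaks. Of the 24 genes with 3 or more exonic peaks, 8 had all peaks higher, 10 had all lower and 6 were mixed. Peaks of 1 gene share a transcript and its reads, so they do not add up as separate evidence.

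KIF4A, a chromokinesin of the mitotic spindle midzone, had 5 exonic peaks at 15.3 and 15.4 FPKM. In the authors' deposited table all lay above 0, from 0.62 to 1.28, each with an adjusted p of at most 0.00704. A pair of them nearly touched, ending at chrX:70329473 and starting at chrX:70329498. SLC25A23, a mitochondrial carrier, had 3 at 4.62 and 4.89 FPKM, and in the authors' deposited table they stood at 2.02, 2.44 and 1.96, all differential. These 3 lie side by side within chr19:6452475-6456315 and may not be separate. The stop codon peak of SLC25A23 stood at -0.40 in the same source, so the sign differed within the transcript. NUP93, a scaffold nucleoporin, had 3 peaks between 0.66 and 1.05, and CD2AP, an actin adaptor, had 3 between 0.35 and 1.63. The cytoskeletal partners SPTAN1 and SPTBN1, the alpha and beta spectrins, were above 0 in every exonic peak: 3 from 0.33 to 1.07 and 4 from 0.10 to 0.39.

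On the other side, RNF213, a giant ubiquitin ligase, had 7 exonic peaks at 79.8 and 73.4 FPKM. In the authors' deposited table all 7 lay below 0, from -0.44 to -0.09, and 0 were differential. Only the lowest of the 7 lay below the median of all listed peaks (-0.38). AHNAK, a giant scaffold protein under the membrane, had 3 peaks from -0.20 to -0.13 at 103 and 97.0 FPKM. These peaks, like those of DST and WNK1, were below 0 but above that median. DST, MACF1, MAP4, WNK1, RAI1 and TNRC18 also had 3 peaks each, all below 0 and under 2-fold. SYNE1, a nuclear envelope spectrin-repeat protein, had 2 of its 3 past 2-fold, at -2.37 and -2.27, and the other at -0.81. It was listed at 0.754 and 0.771 FPKM, and under 1 FPKM 93.9% of exonic peaks were differential. TTN, which encodes the muscle protein titin, had 8 peaks from -3.69 to 2.38, but was listed at 0.0643 and 0.0451 FPKM. It was one of 11 genes with differential exonic peaks in both directions, beside 144 genes with several exonic peaks. Others were ITGA4 (-2.57 and 3.42), at 2.09 and 2.08 FPKM, and IGFN1 (-1.54 and 3.06), at 0.824 and 0.973 FPKM. The higher IGFN1 peak had no adjusted p. The same count over all listed peaks was not made.

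**Figure D4:**
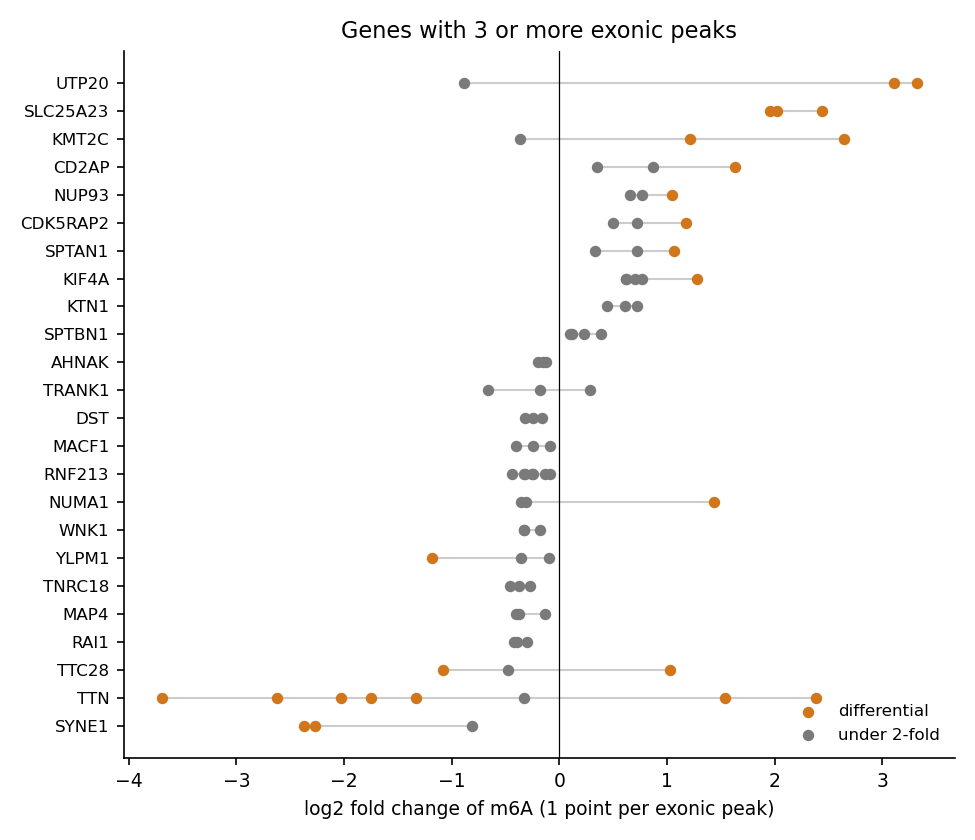
Each row is a gene with 3 or more exonic peaks and each point an exonic peak, placed by its log2 fold change of m6A from the authors' deposited table, with differential peaks in orange and a line from the lowest to the highest. KIF4A, SLC25A23 and the spectrins lie above 0 throughout, and RNF213 and AHNAK below, while TTN spreads from -3.69 to 2.38.

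The 15 exonic peaks with the smallest p-values belonged to abundant transcripts, and 10 were higher and 5 lower. EEF1A1, the elongation factor that brings aminoacyl-tRNA to the ribosome, had input levels of 318 and 321 FPKM. Its exonic peak at chr6:73518889-73519564 stood at 0.66 in the authors' deposited table (p = 3.39e-222). EEF1A1 has many near-identical processed pseudogenes, so its reads may be split by the counting. VIM, the intermediate filament vimentin, stood at 0.82 in the authors' deposited table (p = 1.50e-66) at 510 and 499 FPKM, and the spindle assembly factor TPX2 at 0.86 (p = 2.80e-40) at 84.6 and 81.8 FPKM. These m6A values were higher with the METTL16 plasmid while the input levels of the arms were nearly equal. ANXA1, a phospholipid-binding annexin, stood at 0.85 at 62.9 and 53.3 FPKM. The lone differential peak of the 15 was that of PSMD2, a subunit of the proteasome's regulatory particle, at 1.43 in the authors' deposited table (p = 2.48e-32), with 96.6 and 102 FPKM.

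The translocase EEF2 (0.58), the endoplasmic reticulum chaperone CALR (0.42), the mitotic activator CDC20 (0.86), the adaptor YWHAZ (0.54) and the glycosyltransferase MGAT4B (0.95) completed the higher ones in the authors' deposited table. The 5 lower ones were PLEC (-0.30), which encodes the cytolinker plectin, the interferon-induced ISG15 (-0.36), the m6A-binding PRRC2A (-0.43), RNF213 (-0.44) and AHNAK (-0.13). None of these 5 was near the 2-fold limit. Small p-values here go with abundant RNA, and they compare the reads of single libraries, not the conditions.

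The largest fold changes were elsewhere. The highest differential exonic peak at 1 FPKM or more in both inputs was that of DDT, D-dopachrome tautomerase, at 4.57 and 6.84 FPKM. It stood at 8.10 in the authors' deposited table (adjusted p = 2.73e-05). SMN1, the splicing assembly factor lost in spinal muscular atrophy, followed at 6.75 in the authors' deposited table (adjusted p = 0.00113), with 20.6 and 19.1 FPKM. TRMT61A, at 3.70 and 3.50 FPKM, came next with 4.87 in the authors' deposited table (adjusted p = 0.0433). ALDH1A3, a retinaldehyde dehydrogenase at 1.87 and 2.85 FPKM, stood at 4.14 with an empty adjusted p. Others of the highest 10 were RGPD5, NBPF19, LARP4B, UGGT2 and ITGA4, from 3.86 to 3.42. Of the 10, 4 had an adjusted p below 0.05 and 3 had none. DDT and SMN1, which lead, both have a near-identical copy in the genome (DDTL and SMN2), as have RGPD5 and NBPF19, so the split of reads between copies is uncertain for them.

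The lowest was UBE4B, a ubiquitin chain elongation factor, at 4.15 and 4.52 FPKM. It stood at -7.09 in the authors' deposited table, with no adjusted p. GPR89B, which encodes a Golgi pH regulator and has the near-identical copy GPR89A, stood at -5.76 in the authors' deposited table (adjusted p = 2.57e-10). It was also among the few genes whose input differed, at 3.32 and 2.07 FPKM. The methionine sulfoxide reductase MSRB2 (-5.63) and NOMO1 (-5.60), an endoplasmic reticulum membrane protein, followed, then the kinase PDPK1 (-4.28), the autophagy protein ATG2B (-4.02), the Wnt adaptor DVL3 (-3.71), ANKRD36B (-3.60), ZNF638 (-3.37) and the sorting nexin SNX29 (-3.36). Among these 10, 2 had an adjusted p below 0.05, those of GPR89B and ANKRD36B, and 3 had none. NOMO1, PDPK1 and ANKRD36B also belong to families with copies.

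A list of families with near-identical copies, which does not hold DDT, GPR89B or EEF1A1, had 25 exonic peaks. Of these 16 were differential, 10 higher and 6 lower, or 64.0% beside 43.7% of all listed peaks and 39.0% of all exonic ones. The NBPF genes showed both directions: NBPF19 stood at 3.84, NBPF12 at 2.24 and NBPF8 at 1.94 in the authors' deposited table, and NBPF11 at -1.78. NBPF14 had a peak at 2.40 and another at -1.86. Signs thus differed between copies and within a gene.

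The m6A machinery itself carried 9 exonic peaks on 7 genes, 2 above 0 and 7 below, with a median of -0.24 beside -0.26 for all exonic peaks. The 2 above 0 were differential: WTAP, the splicing-linked adaptor of the METTL3 and METTL14 complex, at 1.29 (p = 0.0149), and FTO, a demethylase, at 2.27 (p = 0.0280), in the authors' deposited table. WTAP's stop codon peak stood at -0.13 there, below 0. VIRMA, the scaffold of the same complex, had 2 exonic peaks at -0.26 and -0.31, and its partner ZC3H13 had 1 at -0.23. The m6A-binding PRRC2A and its relatives PRRC2B (-0.38) and PRRC2C (-0.12) were below 0 as well. The differential share was 22.2%, beside 43.7% of all listed peaks. None of the 9 combined a 2-fold change with an adjusted p below 0.05.

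Proteins of mitosis and the centrosome had 15 exonic peaks on 13 genes. Of these 10 were above 0, and the median was 0.61 (interval -0.36 to 0.98, which includes 0). By smallest p they were TPX2 (0.86), the mitotic kinase PLK1 at 1.0 (p = 5.28e-13), NUMA1, which anchors spindle poles, and the microtubule polymerase CKAP5 (0.61), in the authors' deposited table. The citron kinase CIT (0.97) and the kinetochore scaffold KNL1 (0.98) lay near the 2-fold limit. NUMA1 had 2 peaks at -0.36 and -0.31 and another at 1.44. AURKA (-0.41), INCENP (-0.38) and CEP164 (-2.92) were below 0. Of the 15, 3 were differential and higher and 1 was differential and lower, 26.7% in all, beside 39.0% of exonic and 43.7% of all listed peaks. The peaks of the same genes with other labels had 8 of 14 above 0 and a median of 0.21. The median mean input of the 15 exonic peaks was 13.1 FPKM, against 7.14 FPKM for all exonic peaks, and its part was not tested.

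Translation factors and chaperones had 7 exonic peaks, 6 of them above 0, with a median of 0.58 (interval -2.11 to 0.81, which includes 0). They were EEF1A1 (0.66), EEF2 (0.58), the nucleolar NCL (0.81), the initiation factor subunit EIF3B (0.76), the chaperonin subunit CCT2 (0.50) and the chaperone HSP90AB1 (0.14). HSPA9, the mitochondrial chaperone mortalin, was the exception and the lone differential one, at -2.11 in the authors' deposited table. The differential share was thus 14.3%, beside 39.0% of exonic and 43.7% of all listed peaks. Peaks of these genes with other labels were above 0 in 6 of 7 cases, so the sign was not restricted to the exonic ones. The median mean input of the 7 exonic peaks was 54.5 FPKM, and the part of this higher level was not tested.

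C2H2 zinc finger genes, a large class of DNA-binding proteins taken here by symbol alone, had the lowest median of the lists. They had 28 exonic peaks on 25 genes, 3 above 0 and 25 below, with a median of -0.55 (interval -1.43 to -0.36). Of the 12 differential ones 11 were lower and 1 was higher, and 42.9% differential is close to the 43.7% of all listed peaks. By smallest p they were led by the transcription regulators ZNF592 (-0.39 and -0.47), ZNF609 (-0.31) and ZBTB4 (-0.33), in the authors' deposited table. ZNF566 was lowest at -4.50, and ZNF860 (3.51), ZNF777 (0.66) and ZBTB44 (0.47) were the 3 above 0. Peaks of the same genes with other labels had 4 of 17 above 0 and a median of -0.39, so the sign was not restricted to the exonic ones. Their genes had a median mean input of 3.52 FPKM, against 7.14 FPKM for all exonic peaks. The part of this lower input in the fold changes was not tested.

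**Figure D5:**
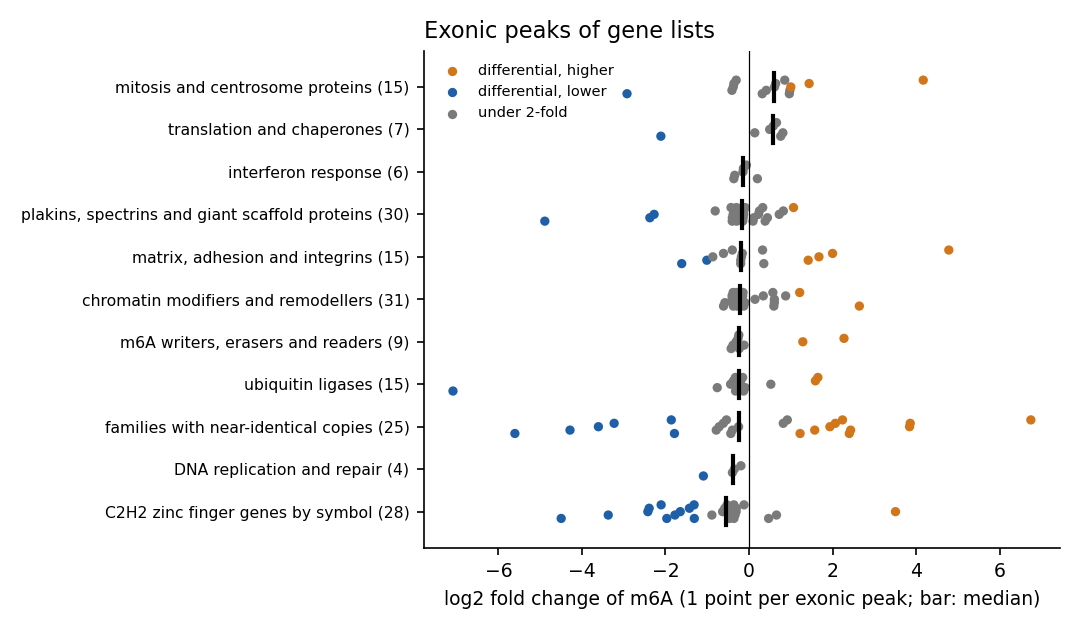
Each point is an exonic peak of a gene list, placed by its log2 fold change of m6A from the authors' deposited table, with the number of peaks in brackets and a bar at the median. Mitosis (0.61) and translation (0.58) have medians above 0, with intervals that include 0, and C2H2 zinc finger genes have the lowest (-0.55).

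The remaining lists held smaller values or both directions. Giant scaffold proteins had 30 exonic peaks, 10 above 0, with a median of -0.16, and 4 were differential, 13.3% beside 43.7% of all listed peaks. The spectrins, TLN1 (0.44), which encodes the integrin-binding talin, FLNA (0.25), an actin crosslinker, and VIM were above 0. PLEC, AHNAK, DST and MACF1 were below. Chromatin modifiers and remodellers had 31, 9 above 0, with a median of -0.23, and 2 were differential, 6.45% beside the same 43.7%. Both belonged to the histone methyltransferase KMT2C (1.21 and 2.64), whose remaining exonic peak was below 0, at -0.37. The SWI/SNF subunit ARID1A stood at -0.61 in the authors' deposited table. Within this list, CREBBP, a histone acetyltransferase, had a peak at 0.61 and another at -0.28.

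Matrix and adhesion genes had 15 exonic peaks, with 6 above 0 and a median of -0.18. Of the 15, 4 were differential and higher and 2 were differential and lower, 40.0% in all, close to the 39.0% of exonic peaks. The collagen VI chain COL6A1 had 2 higher ones, at 2.0 (p = 1.39e-05) and 1.42, in the authors' deposited table. The integrin ITGB4 stood at 4.78, at 0.694 and 0.780 FPKM, and the collagen COL1A1 at -1.61. Ubiquitin ligases had 15, 7 of them on RNF213, with 3 above 0 and a median of -0.25. CBLB (1.65) and BIRC6 (1.59) were differential and higher and UBE4B (-7.09) was differential and lower. That is 20% in all, beside 39.0% of exonic and 43.7% of all listed peaks. The interferon response had 6, 1 above 0, with a median of -0.14, and 0 were differential, beside the same shares of exonic and all listed peaks. DNA replication and repair had 4, all below 0, with a median of -0.37, while 3 of 5 peaks of these genes with other labels were above 0, with a median of 1.12. Among immediate-early and p53 targets the cell cycle inhibitor CDKN1A alone had an exonic peak (-0.32), and NF-kB targets and cytokines had 0 exonic peaks on 11 listed genes.

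Genes with an exonic and a stop codon peak allow the labels to be set side by side within a transcript. There were 155 such genes, each taken at its peak of smallest p per label. From the authors' deposited table the median was -0.14 for exonic and -0.27 for stop codon peaks. The median difference within the gene was 0.14 (interval 0.01 to 0.26), and the exonic value was above the stop codon value in 93 genes (60.0%, 51.8 to 67.8%). In 70 genes both lay below 0 and in 32 both above. In 42 the exonic peak was above 0 with the stop codon peak below, and in 11 the reverse held.

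Both signs occurred among abundant transcripts. EEF2 stood at 0.58 in the exon and at -0.15 at the stop codon, and CALR at 0.42 and -0.13, in the authors' deposited table. EEF1A1 (0.66 and 0.17) and TPX2 (0.86 and 0.15) were above 0 at both, with the larger value in the exon. PLEC (-0.30 and -0.31) and AHNAK (-0.13 and -0.18) were below 0 at both. Another AHNAK peak labelled stop codon, at chr11:62433816-62491806, stood at -0.46. RNF213 stood at -0.44 and -0.17 for its peaks of smallest p. However, 2 of its 7 exonic peaks (-0.09 and -0.13) lay above both of its peaks labelled stop codon (-0.16 and -0.17). The one at -0.16 lies at chr17:80313138-80320620, between exonic peaks of the gene, and the one at -0.17 at chr17:80393375-80396525. These examples were chosen after their values were seen, among genes named above.

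Against 3'UTR peaks, 296 genes had both labels. The medians were -0.28 for exonic and -0.38 for 3'UTR peaks, and the median difference of 0.07 had an interval of -0.04 to 0.23, which includes 0. The exonic value was above in 162 genes (54.7%). Of the 296 genes, 36 had opposite differential marks and 24 had the same mark. With each other label compared, the same mark was the more frequent. It was given to 6 genes against 4 for stop codon peaks and 6 against 3 for start codon peaks. For 5'UTR peaks the counts were 7 against 1, and for intronic peaks 17 against 12. In SPTAN1 the exonic peak of smallest p stood at 1.07 in the authors' deposited table, with the 3'UTR peak at -0.35, in COL6A1 at 2.0 and -0.30, and in FLNA at 0.25 and -0.52. For 587 genes, with 679 peaks, exonic peaks were the only listed ones. Of those peaks 45.5% were differential, 137 higher and 172 lower, against 31.9%, 103 higher and 94 lower, of the 618 exonic peaks on genes with further labels. The median mean input of the former was 5.33 FPKM and of the latter 9.15 FPKM.

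Input RNA of the genes with an exonic peak was nearly the same in both arms. Over 974 such genes at 1 FPKM or more in either input, the median log2((FPKM + 1)/(FPKM + 1)) of the overexpression over the control arm was -0.03 (interval -0.04 to -0.02). On this scale, which understates the change of low genes, 0 genes were past 2-fold in either direction, beside 0.293% of all 5467 genes at that level, 0.146% each way. Within 1.5-fold lay 99.8% of the genes. The highest differences included those of TMED7-TICAM2, a readthrough gene, at 6.13 and 3.44 FPKM, and of PPP1R15A, a stress-induced phosphatase subunit, at 70.3 and 49.9 FPKM. The lowest included those of the mitochondrial rRNA methyltransferase MRM2, at 1.32 and 3.31 FPKM, and of DDT. Across these genes the log2 fold change of m6A and the input change had a Spearman correlation of -0.11, which is a description over genes that share their libraries.

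Overlap with other listed peaks touched few values. Of the 1297 exonic peaks, 36 shared bases with another listed peak, 27 of them with a peak on the opposite strand. The library protocol marked strand, per the labels, while the use of strand in the counting is not given in the sources used here.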

How the data were processed

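m6A was measured by MeRIP-seq in 4 libraries, 1 input and 1 immunoprecipitate for each of 2 arms of BEAS-2B cells. Ribosomal RNA was depleted and strand was marked with dUTP, per the labels' protocols. The submitters' processing notes name fastp 0.19.4 and the genome build hg38. Sources used here give no aligner and no peak caller. The authors deposited 1 table of peaks with a region label, a log2 fold change of m6A and a p-value, raw and adjusted. The authors deposited input expression as FPKM per gene with the ratio (fold) of both inputs. The deposited peak length counts genomic bases from first to last, introns included. Depth is unknown, since no counts were used.

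Peaks labelled exonic were counted by direction, level, span, gene and gene list (Python 3.11.15, pandas 2.3.3, scipy 1.17.1, matplotlib 3.10.9). Intervals are exact Clopper-Pearson (95%) for shares and from order statistics for medians, and they cover the counting of peaks only. Conditions were not tested, since each group had 1 library. Input changes used a pseudocount of 1 and genes at 1 FPKM or more in either input. The counting steps were tested on simulated data. The exonic peaks, the gene lists and the naming rule were chosen with earlier results of these data known. The rule took the 10 highest and 10 lowest differential peaks at 1 FPKM or more in both inputs, the 15 smallest p-values, genes with 4 or more exonic peaks, up to 4 members per list by p-value, up to 6 genes differential both ways and the 4 highest and lowest input changes; further genes named were chosen after their values were seen. A few genes within the rule are not reported here. Of the exonic peaks, 9 had no gene symbol and 8 no FPKM. Sequences and gene positions came from RefSeq tables of GRCh38.p14, the same assembly as hg38. No genome sequence or exon models were used here.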

Additional observations from a re-analysis of the deposited data

How the results depend on the processing

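The counts of 240 higher and 266 lower differential exonic peaks became 98 and 124 at a 4-fold limit, 71 and 58 with an adjusted p below 0.05 as well, and 112 and 145 for spans of at most 1000 bases. With 1 FPKM or more in both inputs the lower count was 163 and the higher 172. Centring on the median of all listed peaks gave 369 higher and 203 lower. The exonic median of -0.26 became -0.21 over peaks with an adjusted p below 0.05 and reversed to 0.12 with the centring. The share of exonic peaks below 0 was 60.5%, and it was 55.1% with the adjusted p, 39.3% with the centring and 53.8% for spans of at most 1000 bases. With log2(FPKM + 0.1), 2 genes with an exonic peak differed 2-fold in input, against 0. In 26 of the 40 alternatives, the counts of 172 and 203 above included, the sign was kept, counts stayed within 1.5 times the reported one and other values within its interval. They include 1 peak per gene, no overlap with another peak and no copy families. Leaving out DDT, GPR89B and EEF1A1 as well, an alternative chosen after seeing the data, gave 229 higher and 259 lower. No paired analysis was possible because each group had 1 library, and for the same reason no replicate could be left out. The share of exonic peaks with GGACT and the length of their exons, with their alternatives, were not run, since no genome sequence or exon models were used here. Depth is unknown, so its part in the large values under 1 FPKM was not tested.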

Other observations

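The mitochondrial genome, whose mRNAs are read from genes without introns, carried 5 exonic peaks. MT-ATP8 stood at 0.28 (p = 1.30e-08) in the authors' deposited table, at 97.2 and 93.5 FPKM, and MT-ND6, the gene on the opposite strand, at 0.28 (p = 5.86e-05), at 46.6 FPKM in both inputs. MT-ND1 stood at 0.21, and MT-CO2 (-0.12) and MT-CYB (-0.08) were below 0. None was past 2-fold, 3 were above 0 and 2 below. The MT-ATP8 peak spanned 1026 bases, longer than that small gene, so it also covers its neighbours on the same transcript.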
